A study of Mus musculus with 6 samples.

Results

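Lymphatic endothelial genes were read in the right atria (RAs) of mice, as the 8 genes Prox1, Flt4, Lyve1, Pdpn, Reln, Mmrn1, Vegfc and Vegfd out of 54093 genes in the expression table. They were found by gene symbol, and each had 1 row. The mice were wild-type C57BL/6, and the RAs came from P21 animals. The sham group had a sham operation at P7, and the volume overload (VO) group had an aortocaval fistula made at P7, which sends aortic blood into the inferior vena cava and so to the RA. Each group held 3 bulk RNA-seq libraries, named here sham 1 to sham 3 and VO 1 to VO 3. The labels do not say whether a library came from 1 animal or from pooled animals, so p-values measure only the spread between these libraries.

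Lymphatic capillaries drain fluid, proteins and immune cells from the heart wall, and their endothelium is set apart from blood endothelium by the transcription factor Prox1. Lymphatic growth is driven mainly by the ligands VEGF-C and VEGF-D, encoded by Vegfc and Vegfd, which activate the receptor VEGFR-3, encoded by Flt4. Lyve1 encodes a hyaluronan receptor, Pdpn a surface glycoprotein that binds the platelet receptor CLEC-2, Reln the secreted glycoprotein reelin, and Mmrn1 the matrix protein multimerin-1. Most of these genes are not private to lymphatic vessels: Prox1 is also active in cardiomyocytes, Lyve1 in resident macrophages, Pdpn in mesothelium and some fibroblasts, and Mmrn1 in platelets and their precursors.

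For none of the 8 genes was a difference between VO and sham detected beyond the spread between libraries. In 8 of 8 the groups overlapped, so 0 were without overlap, while 21.2% of the 12627 tested genes were. Levels are FPKM (fragments scaled for gene length and library size), and the 6 genes with a mean of at least 1 FPKM over the 6 libraries were tested with limma on log2(FPKM + 0.1). Of these 6, 0 had an adjusted p under 0.05 in limma's moderated test (0.00792% of all tested genes did) and 0 had an unadjusted p under 0.05 (12% of all tested genes did, 3.89% higher and 8.08% lower in VO), and both counts were also 0 with voom on fragment counts. The log2 fold change, VO minus sham, was above 0 in 5 of the 6 and below 0 in Lyve1, with a median of 0.20, beside a median of -0.01 and 48.5% above 0 over all tested genes. Fold changes on this scale understate the change of genes with low values.

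The libraries held between 15963082 and 17237903 fragments on genes. The library size that the deposited FPKM imply was another one: it was 15557402 in sham 1, below the 16494342 fragments on genes there, and 18144117 in VO 1, above the 16852482 fragments there. The deposited FPKM had a median-of-ratios factor of 1 in each library, so they were already on that scale. Levels in VO 1 are thus lower against sham 1 than fragment totals would give, and with fragment totals the log2 fold changes of the 6 tested members lay between -0.24 and 0.44. Blood endothelial markers were present in every library. Some libraries stood apart in other markers. VO 3 held a summed 392 FPKM of 5 adipose genes, of which Ucp1 made up 254 FPKM, while the other 5 libraries held 3.50 to 7.72 FPKM and Ucp1 at 0. The nerve and Schwann cell list was likewise highest in VO 3, at 60.2 FPKM against 11.9 to 16.2 elsewhere. VO 1 held Cxcl13, a B cell chemokine, at 103.6 FPKM against 0.160 to 2.11 in the other libraries, and the macrophage gene Adgre1 at 62.1 against 9.76 to 14.6. The summed cardiomyocyte list ran from 16025 to 19296 FPKM in sham and from 7739 to 13170 FPKM in VO, without overlap between groups. Values without VO 1 or VO 3 are given beside many results of the members and list genes, but not for the cell type lists.

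**Figure D1:**
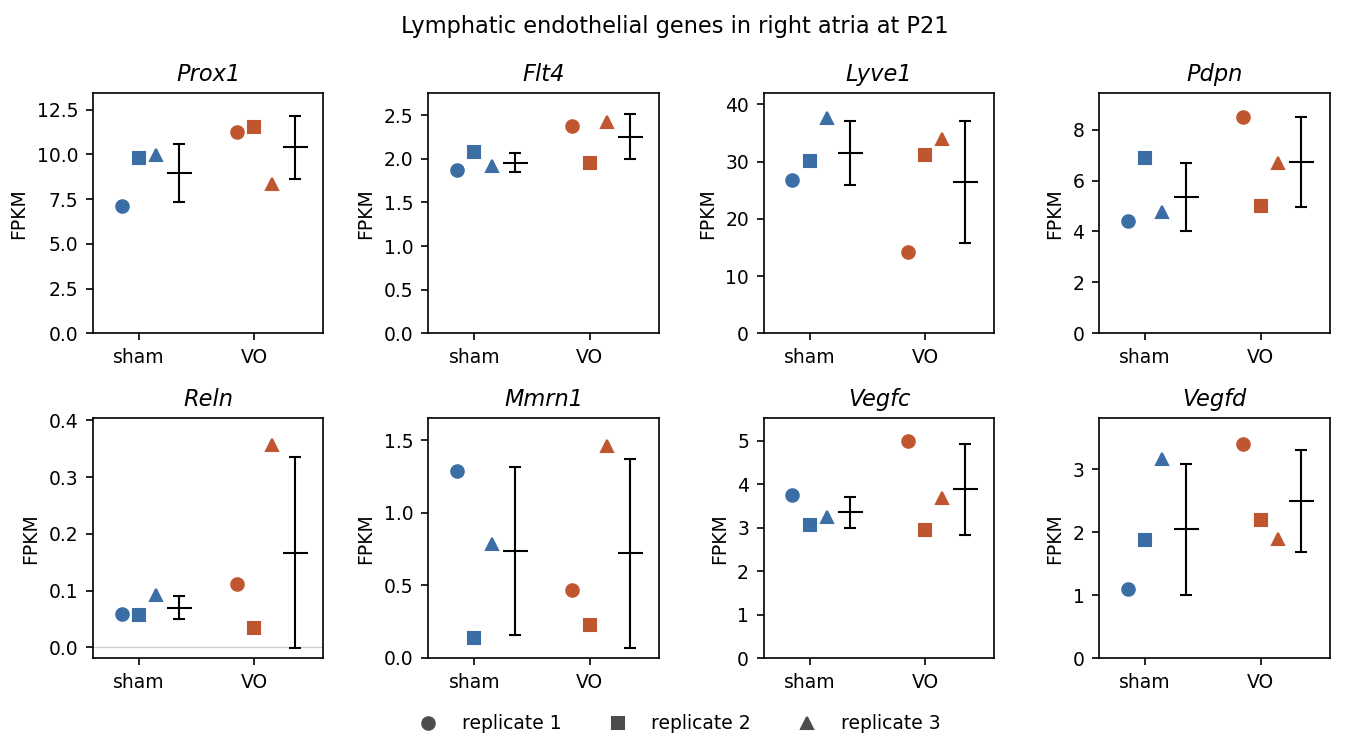
FPKM (linear axes from 0) of the 8 lymphatic endothelial genes in the 3 sham (blue) and 3 VO (orange) libraries, with the symbol giving the replicate number and the black bar the mean ± SD of a group. In every panel the 2 groups overlap; VO 1 is lowest for Lyve1, and VO 3 is highest for Reln, Mmrn1 and Flt4.

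In order of mean level over the 6 libraries, Lyve1 came first with 29.0 FPKM, followed by Prox1 with 9.67, Pdpn with 6.04, Vegfc with 3.61, Vegfd with 2.27, Flt4 with 2.10, Mmrn1 with 0.729 and Reln with 0.118. FPKM is per gene length, so these levels can be set beside each other. The order held between neighbours in 6 of 6 libraries except for Vegfd and Flt4, where Vegfd was above Flt4 in 3 of 6. Vegfc was above Vegfd by a ratio of only 1.02 in sham 3 and of 3.43 in sham 1. The spread was narrowest for the receptor gene Flt4, from 1.87 to 2.42 FPKM, and reached 10.6 times for both Mmrn1 and Reln.

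Prox1 (ENSMUSG00000010175, GRCm38 chromosome 1, 190118035 to 190170714, minus strand), the homeobox factor that sets and keeps lymphatic identity, was at 7.09, 9.80 and 9.96 FPKM in sham 1 to 3 and at 11.3, 11.6 and 8.37 in VO 1 to 3. VO 1 and VO 2 were above every sham library, and VO 3 lay among them. The means were 8.95 ± 1.61 FPKM in sham and 10.4 ± 1.76 in VO (SD, n = 3 each). The log2 fold change was 0.22 with a 95% confidence interval from -0.22 to 0.65 (limma's adjusted p = 0.596). Leaving out sham 1, the lowest library, brought it to 0.06, and leaving out VO 3 to 0.36. The antisense gene Prox1os covers 133 of the exon bases of Prox1, or 1.59%, and whether the counting used strand is not stated, so reads there may come from either gene. Cardiomyocytes also carry Prox1 RNA, and the summed cardiomyocyte markers given above were lower in the VO libraries, while the mean of Prox1 was not. That sum is led by Myl7, with a mean of 5190 FPKM. All 8 markers had a log2 fold change below 0, while 48.5% of all tested genes were above 0. Of the 8, 5 were without overlap, beside 21.2% of all tested genes. Myh6, Ryr2 and Ttn overlapped, at -0.40, -0.13 and -0.29. The paper reports Actc1, Tnnt2, Actn2 and Myh6 as lower in VO by qRT-PCR. Being read in bulk tissue, the sum cannot separate fewer cardiomyocytes from less of these RNAs per cell. The part of cardiomyocytes in the Prox1 level was not tested.

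Flt4 (ENSMUSG00000020357, chromosome 11, 49609263 to 49652739, plus strand) encodes the receptor for both ligands. It was at 1.87, 2.08 and 1.92 FPKM in sham and at 2.38, 1.95 and 2.42 in VO, from 239 to 355 fragments per library. VO 1 and VO 3 were above all sham libraries, and VO 2 lay inside the sham range. Sham averaged 1.95 ± 0.111 FPKM and VO 2.25 ± 0.259 (SD, n = 3 each). Its log2 fold change was 0.19 (95% interval -0.18 to 0.56, limma's adjusted p = 0.582), and it ranged from 0.14 without VO 3 to 0.28 without VO 2. With its narrow spread, Flt4 had the tightest interval of the 6 tested members.

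Lyve1 (ENSMUSG00000030787, chromosome 7, 110850607 to 110863239, minus strand) was the member with the highest level and the only tested one with a lower mean in VO. It was at 26.7, 30.1 and 37.6 FPKM in sham and at 14.3, 31.2 and 34.0 in VO. VO 1 alone lay below the sham range, while VO 2 and VO 3 lay inside it. The means were 31.5 ± 5.58 FPKM in sham and 26.5 ± 10.7 in VO (SD, n = 3 each), and the log2 fold change was -0.33 (95% interval -1.11 to 0.44, limma's adjusted p = 0.641). Without VO 1 it was 0.06, so its sign rested on that library. Per Flt4, Lyve1 stood at 6.01 in VO 1 and at 14.0 to 19.6 in the other 5 libraries.

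Lyve1 also marks resident macrophages. Of the 12 resident macrophage genes listed, 7 were highest in VO 1, though the share of all genes highest there was not taken. The summed level of the 12 was 492 FPKM in VO 1 against 278 to 355 in sham and 290 and 323 in VO 2 and VO 3. Csf1r, the receptor for the macrophage growth factor, was at 61.2 FPKM in VO 1 and between 18.3 and 25.0 in the other libraries. The ratio of Lyve1 to Csf1r was thus 0.233 in VO 1 and 1.29 to 1.74 elsewhere. The list did not move one way there: Cbr2, F13a1 and Gas6, the most abundant of the list, were lowest in VO 1, as Lyve1 was. Cbr2 was at 1.87 FPKM in VO 1 against 4.95 to 12.7 elsewhere, and F13a1 at 1.44 against 2.22 to 7.47. The part of macrophages in the Lyve1 level was not tested. In bulk tissue, fewer cells of a type and less RNA per cell cannot be told apart.

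Pdpn (ENSMUSG00000028583, chromosome 4, 143267431 to 143299564, minus strand) was at 4.42, 6.90 and 4.77 FPKM in sham and at 8.49, 4.996 and 6.69 in VO. Its highest library was VO 1, and sham 2 was above both VO 2 and VO 3. The means of 5.36 ± 1.34 FPKM in sham and 6.73 ± 1.75 in VO (SD, n = 3 each) gave a log2 fold change of 0.32 (95% interval -0.24 to 0.88, limma's adjusted p = 0.552). Leaving out VO 1 gave 0.13 and leaving out VO 2 gave 0.51. Mesothelial and epicardial genes, of cells that also express Pdpn, varied over the same libraries: the sum of 9 such genes was 62.1, 155.8 and 87.8 FPKM in sham and 165.8, 69.9 and 109.4 in VO. For both measures VO 1 was highest, followed by sham 2 and VO 3, and sham 1 was lowest. The part of mesothelium in the Pdpn level was not tested.

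**Figure D2:**
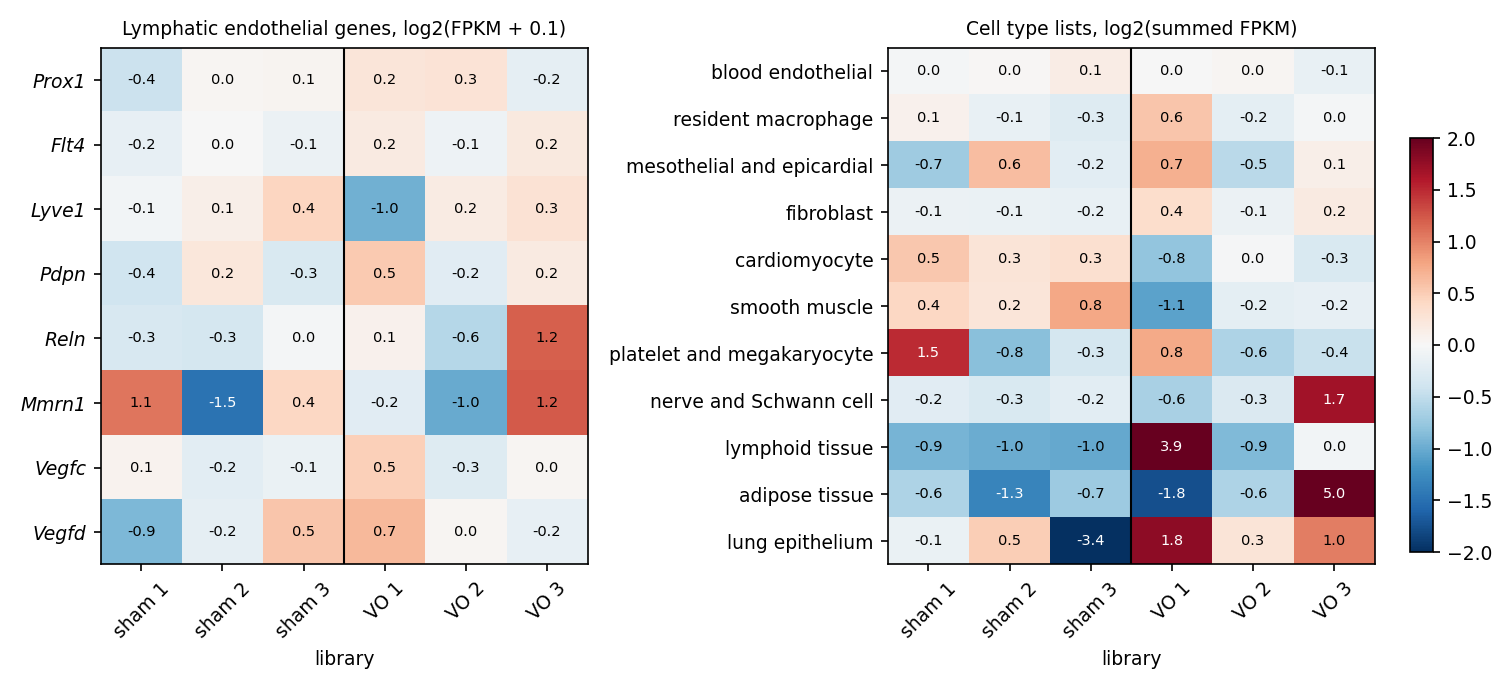
Difference of each library from the mean of its row on the log2 scale, for the 8 members as log2(FPKM + 0.1) (left) and for the summed FPKM of 11 cell type lists (right). The colour scale stops at 2 in either direction and the number in each cell gives the value; Lyve1 is at -1.0 in VO 1, Reln and Mmrn1 are at 1.2 in VO 3, and the adipose list is at 5.0 in VO 3.

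Reln and Mmrn1 were under 1 FPKM on average and so outside the main test. Reln (ENSMUSG00000042453, chromosome 5, 21884454 to 22344702, minus strand) was at 0.0596, 0.0562 and 0.0931 FPKM in sham and at 0.111, 0.0336 and 0.356 in VO, from 13 to 139 fragments per library on a gene model of 23738 bases. VO 3 was high and VO 2 was below every sham library. Mean levels were 0.0696 ± 0.0204 FPKM in sham and 0.167 ± 0.168 in VO (SD, n = 3 each; exact two-sided permutation p = 0.6, where the smallest possible is 0.1). With genes of a mean of at least 0.1 FPKM admitted, its log2 fold change was 0.47 (95% interval -0.94 to 1.88, limma's adjusted p = 0.761). Without VO 2 it was 0.88. Without VO 3, where its mean was under that limit too, a fit with no filter gave -0.01, so the higher mean rested on VO 3.

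Mmrn1 (ENSMUSG00000054641, chromosome 6, 60924976 to 60989378, plus strand) was at 1.29, 0.138 and 0.785 FPKM in sham and at 0.470, 0.230 and 1.46 in VO, from 14 to 141 fragments per library. The highest libraries were VO 3 and sham 1, 1 from each group, and the lowest were sham 2 and VO 2. Group means were 0.739 ± 0.578 FPKM in sham and 0.720 ± 0.653 in VO (SD, n = 3 each; exact two-sided permutation p = 1.0). The interval of its log2 fold change ran from -1.86 to 1.86 with the lower filter. The 7 platelet and megakaryocyte genes summed to 124.4 FPKM in sham 1, the highest of the 6 libraries, but to only 32.5 in VO 3, against 24.9 to 74.8 in the other four.

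VO 3 was the library in which the lymphatic chemokine gene Ccl21a, a further marker of lymphatic endothelium, was also highest. It was at 3.33 FPKM, from 22 fragments, against 0 to 0.274 in the other 5 libraries. Ccl21a was picked after its values were seen, from 21 identity, valve and calcitonin receptor-like genes. Of these 21, 13 were highest in VO 1 and only 2 in VO 3. Ccl21a has near-identical copies in the mouse genome, and the table lists the symbol in 2 rows, of which the higher is given, so its reads may be split between copies. Reln, Mmrn1, Ccl21a and Flt4 were each highest in the library that also held the adipose and nerve genes. For Flt4 the lead was narrow, at 2.42 FPKM in VO 3 against 2.38 in VO 1. Lyve1 and Prox1 were not: Lyve1 was higher in sham 3 than in VO 3, and Prox1 was lower in VO 3 than in 4 other libraries. Pdpn, Vegfc and Vegfd were not either, being highest in VO 1. Of the 8 members, 3 were thus highest in VO 3 and 3 in VO 1. The part of adipose or nerve tissue in these levels was not tested.

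The ligand gene Vegfc (ENSMUSG00000031520, chromosome 8, 54077606 to 54187096, plus strand) was at 3.75, 3.06 and 3.23 FPKM in sham and at 4.996, 2.96 and 3.67 in VO. VO 1 was the highest and VO 2 the lowest of all 6 libraries. It averaged 3.35 ± 0.362 FPKM in sham and 3.88 ± 1.04 in VO (SD, n = 3 each), a log2 fold change of 0.18 (95% interval -0.30 to 0.65, limma's adjusted p = 0.684) that was -0.02 without VO 1. Vegfd (ENSMUSG00000031380, chromosome X, 164373378 to 164402650, plus strand), the second ligand, was at 1.09, 1.88 and 3.16 FPKM in sham and at 3.41, 2.19 and 1.89 in VO, from 41 to 149 fragments. Sham 1 was lowest and VO 1 highest, with sham 3 close behind VO 1. Its means of 2.05 ± 1.04 and 2.498 ± 0.804 FPKM (SD, n = 3 each) gave a log2 fold change of 0.35 (95% interval -0.57 to 1.27, limma's adjusted p = 0.678), which was -0.01 without sham 1 and 0.71 without sham 3. Neither ligand thus kept its direction when each library was left out in turn.

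**Figure D3:**
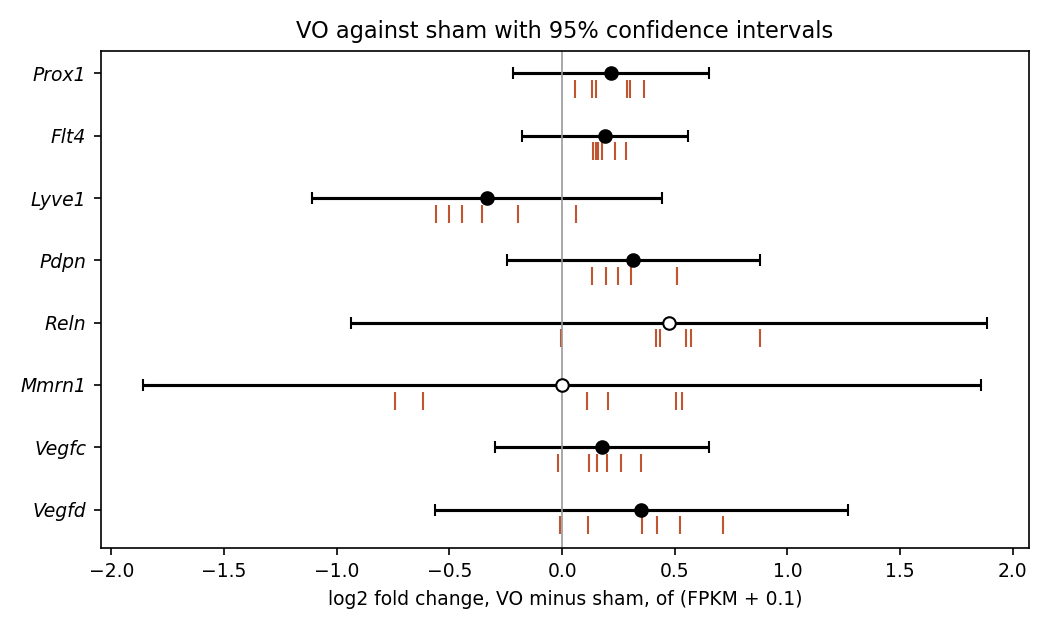
Log2 fold change, VO minus sham, of the 8 members on log2(FPKM + 0.1) (x axis), with 95% confidence intervals; filled circles are the 6 members of the main test and open circles the 2 read with the lower filter. Orange ticks give the value with 1 library left out at a time (for Reln without VO 3, with no filter). Every interval spans 0, and the ticks of Lyve1, Reln, Vegfc, Vegfd and Mmrn1 lie on both sides of 0.

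Over the 6 libraries, members were also set against each other on the log2 scale. Of the 28 pairs, 18 had a Pearson correlation above 0, with a median r of 0.15 over all pairs. The closest pair was Flt4 and Pdpn (r = 0.88, Spearman's rho = 0.83, exact permutation p = 0.0292 and 0.0583), with an adjusted p of 0.389 over the 28 pairs. Without VO 1 and VO 3, the 2 libraries farthest from the median of Flt4, r was 0.99 over the other four. Flt4 and Reln had r = 0.76 (rho = 0.54, exact permutation p = 0.0361 and 0.297, adjusted 0.389), which turned to -0.23 without the same 2 libraries and so rested on them. No pair had an adjusted p under 0.05. Of Lyve1, the strongest relation was an inverse one with Vegfc (r = -0.86, rho = -0.54, exact permutation p = 0.0556 and 0.297), which was -0.19 without sham 3 and VO 1.

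By Pearson's r over the 6 libraries, the tested genes closest to the mean of the 6 tested members were Mfsd4a (0.996), Wasf2 (0.993) and Zfp467 (0.990). The closest single genes were Tmem245 for Prox1 (0.997), Tmx3 for Flt4 (0.996), Htatsf1 for Lyve1 (0.996), Stk26 for Pdpn (0.990), Arhgap9 for Vegfc (0.994) and Trim41 for Vegfd (0.993). These are the highest of 12627 values over 6 libraries each, and they describe likeness of pattern only.

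Beyond the members, 57 other genes of lymphatic growth and identity were read in 4 lists, of which 52 passed the filter. None had an adjusted p under 0.05 (smallest 0.404, limma). At an unadjusted p under 0.05, 3 were higher and 1 was lower in VO, 7.69% of the 52 and below the 12% of all tested genes. Groups were without overlap in 10 of the 52, or 19.2%, near the 21.2% of all tested genes. The median log2 fold change was 0.14, with 37 above 0 and 15 below, while 48.5% of all tested genes were above 0. Of the 52, 27 were highest in VO 1, but the same share over all tested genes was not taken. Without VO 1, 2 of 51 tested list genes had an unadjusted p under 0.05 (3.92%, beside 7.40% of all tested genes), and without VO 3 6 of 52 did (11.5%, beside 11.7%). With the other libraries left out in turn the number ran from 1 without sham 1 to 10 without VO 2. Over these 6 fits, the number past the adjusted threshold stayed at 0.

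Among 20 genes of VEGF-C and angiopoietin signalling, 19 were tested, 1 was higher and 1 lower at an unadjusted p under 0.05, and the median log2 fold change was 0.07. Svep1, a matrix protein needed for lymphatic remodelling, was at 1.40, 1.602 and 1.47 FPKM in sham and at 2.61, 1.89 and 2.36 in VO. Every VO library was above every sham library, with a log2 fold change of 0.57 (unadjusted p = 0.0163, limma's adjusted p = 0.404) that was 0.47 without VO 1. Itga9, an integrin subunit required for lymphatic valves, was at 12.7, 11.0 and 14.4 FPKM in sham and at 8.16, 11.4 and 8.81 in VO, with overlap through VO 2. Its log2 fold change was -0.43 (limma's unadjusted p = 0.0323, adjusted p = 0.410). Without VO 1 it was -0.33 and without VO 3 -0.39 (limma's unadjusted p = 0.0916 and 0.0887). Ccbe1 and Adamts3, which help to process VEGF-C to its active form, had log2 fold changes of 0.06 and -0.15 (adjusted p = 0.941 and 0.663). Vegfb, a ligand of VEGFR-1 and the most abundant gene of the list, averaged 110.1 ± 4.28 FPKM in sham against 86.5 ± 20.02 in VO (SD, n = 3 each; log2 fold change -0.37, adjusted p = 0.430), and its log2 fold change was -0.18 without VO 1. Nrp2, the co-receptor of VEGFR-3, averaged 3.82 ± 0.382 and 4.68 ± 0.844 FPKM (SD, n = 3 each; log2 fold change 0.28, adjusted p = 0.465), and 0.14 remained of that difference without VO 1.

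Of 12 transcription factors tied to lymphatic development, 11 were tested and only Hhex had an unadjusted p under 0.05. Hhex was at 3.42, 3.02 and 3.71 FPKM in sham and at 7.18, 4.25 and 4.47 in VO, without overlap, with a log2 fold change of 0.60 (unadjusted p = 0.0258, limma's adjusted p = 0.406) and of 0.36 without VO 1. Sox18 and Nr2f2, which act upstream of Prox1, had log2 fold changes of -0.07 and 0.20 (adjusted p = 0.899 and 0.480), and that of Sox18 was -0.30 without VO 1. Klf2, a flow-responsive factor and the most abundant of the list, was at 21.6 FPKM in VO 1 and at 40.3 to 51.2 in the other 5 libraries (log2 fold change -0.35, adjusted p = 0.585). Without VO 1 its log2 fold change was 0.00, so the lower mean rested on that library.

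In the list of identity, valve and calcitonin receptor-like genes, 18 of 21 were tested, and 0 had an unadjusted p under 0.05. Of the 21, 13 were highest in VO 1, a count with no share over all genes beside it. The most abundant were S1pr1, Adm and Ramp2, the last 2 being the ligand adrenomedullin and a part of its receptor, with log2 fold changes of -0.32, 0.01 and -0.03 (limma's adjusted p = 0.476, 0.977 and 0.908). That of S1pr1 was -0.12 without VO 1. Stab2, a scavenger receptor of lymphatic and sinusoidal endothelium, did not exceed 0.0881 FPKM in any library.

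The 4 genes that keep blood and lymph apart were Clec1b, the platelet receptor of podoplanin, and its signalling partners Syk, Lcp2 and Plcg2. Plcg2 was at 1.68, 2.07 and 1.83 FPKM in sham and at 3.98, 2.57 and 2.53 in VO, without overlap (log2 fold change 0.65, unadjusted p = 0.0172, limma's adjusted p = 0.404), and its log2 fold change was 0.44 without VO 1. Syk and Lcp2 were also without overlap and highest in VO 1, where Lcp2 stood at 6.19 FPKM against 1.34 to 1.92 elsewhere. The log2 fold change of Lcp2 was 0.83 with VO 1 and 0.24 without it, and that of Syk 0.33 and 0.19. These 3 genes are active in many blood cells, and VO 1 also held the highest level of Ptprc, the general leukocyte gene, at 6.74 FPKM against 1.502 to 2.05 in the other libraries. Clec1b was highest in sham 1, as the platelet list was, with 2.88 FPKM there and 0.608 to 1.203 in the others.

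**Figure D4:**
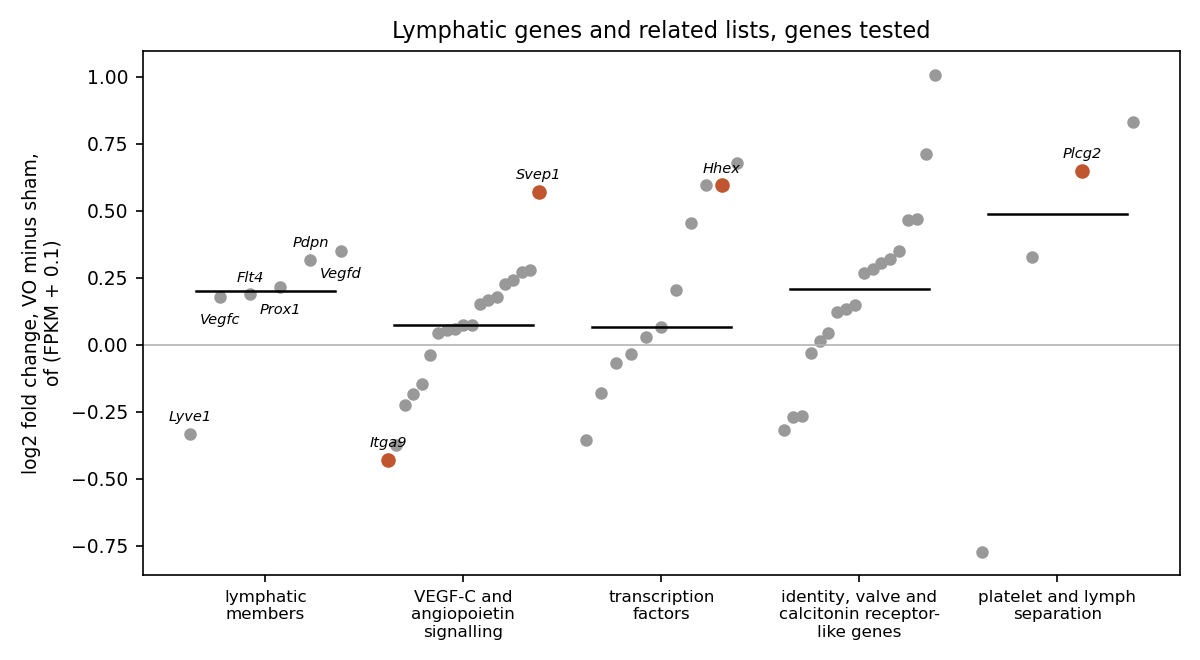
Log2 fold change, VO minus sham, of log2(FPKM + 0.1) for the 6 tested members and for the tested genes of 4 related lists; each point is a gene, orange points have an unadjusted p under 0.05 and lines are medians. No gene shown had an adjusted p under 0.05, and the orange points are Svep1, Itga9, Hhex and Plcg2.

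Blood endothelial markers give a comparison for the vessel lining as a whole. The 7 genes summed to 376, 392 and 427 FPKM in sham and to 383, 398 and 349 in VO, with overlap. That sum is led by Eng, with a mean of 190 FPKM. Cdh5, the endothelial cadherin, had a log2 fold change of 0.28 and Emcn, a venous and capillary sialomucin, of -0.25, each with an unadjusted p under 0.05 and limma's adjusted p = 0.410. Of all tested genes, 12% had such an unadjusted p. The fibroblast list, whose cells can carry Pdpn, summed to 1035 to 1061 FPKM in sham and to 1465, 1057 and 1295 FPKM in VO. It is led by the collagen gene Col3a1, with a mean of 311 FPKM. Col1a1, Col1a2 and Col3a1 had log2 fold changes of 0.51, 0.56 and 0.61, and Pi16 of 0.35. Those of Pdgfra, Dcn, Lum, Tcf21 and Dpt were -0.01, -0.03, 0.11, 0.10 and 0.03. The part of fibroblasts in the Pdpn level was not tested. In the lymphoid tissue list, 10 of 12 genes were at 0 or up to 1.32 FPKM in every library, the others being Cxcl13 and Ptprc. The list summed to 115.7 FPKM in VO 1, led by Cxcl13 at 103.6, and to 3.88 to 7.64 FPKM elsewhere. Of the 12, 9 were highest in VO 1 and 2 in VO 3, a count with no share over all genes beside it.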

How the data were processed

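The authors aligned reads with HISAT2 2.0.5, counted them per gene with featureCounts 1.5.0-p3 and deposited FPKM computed from gene length and counts. GRCm38 is named in the submitters' processing notes, and 98.4% of 54039 shared genes have the same span in GENCODE M21. One incomplete line was left out. Multiplied by gene length, 100% of values above 0 came out as whole fragments within 0.01, and these gave each library's depth.

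FPKM were scaled by median of ratios (factor 1 in each library, so the scaling left them unchanged), kept at a mean of at least 1 and fitted as log2(FPKM + 0.1) with limma 3.58.1 in R 4.3.3 (trended eBayes, no covariates, two-sided, Benjamini-Hochberg, threshold 0.05), with a self-test on simulated data. The authors tested genes with DESeq2 and reported far more genes at an adjusted p under 0.05 than the 1 of 12627 called by the main fit here. The cause of that gap was not tested. Here the main test was chosen for FPKM, and limma voom on the recovered fragments was the count-based alternative. Permutation tests used scipy 1.17.1. Members and lists were chosen with earlier results of these data known. The genes named are all members, list genes at an unadjusted p under 0.05, the most abundant list genes and the closest by r; Nrp2, Ccbe1, Adamts3, Nr2f2, Stab2, Ccl21a, Clec1b and the cell type genes other than the most abundant were named after their values were seen. Same-numbered libraries were not taken as pairs: their deviations correlated at -0.11, 0.01 and -0.03.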

Additional observations from a re-analysis of the deposited data

How the results depend on the processing

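No member passed an adjusted p of 0.05 under any of 27 alternatives, and 0 had an unadjusted p under 0.05 in the alternatives where that count was taken. Of 131 values of members under the alternatives, 122 kept their sign and 9 did not: Vegfd was -0.054 with array weights. These values include settings that cannot move a fold change, and these repeated the main fit. They are the FPKM filters, FPKM as given, the 2 other variance settings and the replicate block. The number with an unchanged sign is thus no measure of stability. With 1 library left out, Lyve1 ranged from -0.56 to 0.062 (without VO 1), Vegfc from -0.017 (without VO 1) to 0.35 and Vegfd from -0.011 (without sham 1) to 0.71. Mmrn1, read with the lower filter in fits chosen after seeing the data, ranged from -0.74 (without sham 2) to 0.53 (without sham 1) and was 0.206 without sham 3, 0.110 without VO 1 and 0.504 without VO 2. Reln, also in fits chosen after seeing the data, was -0.0067 without VO 3 (no filter) and reached 0.88 without VO 2. Members without overlap numbered 0 to 2 with 1 library left out: Flt4 and Pdpn without sham 2, Flt4 and Reln without VO 2, Vegfd without sham 3 and Prox1 without VO 3. The share of all genes without overlap was not taken for these fits, and the 21.2% given above is for all 6 libraries. Groups separate more easily with fewer libraries, so these counts are no result about the members. Over all genes, 1 was called in the main fit, 2 with a pseudocount of 1, 3 with a filter of 0.1 FPKM or without the variance trend, and 0 with quantile normalization, with robust variance, with the replicate number as a block and in each of the 6 fits (0 to 0) without a library; the cause was not tested. TPM moved the median log2 fold change of all genes from -0.01 to 0.13 and no tested member changed sign, with Prox1 at 0.36, Flt4 at 0.33, Pdpn at 0.46, Vegfc at 0.32, Vegfd at 0.50 and Lyve1 at -0.19. Array weights brought Prox1 to 0.07, Pdpn to 0.16 and Lyve1 to -0.20. Depth limits Reln and Mmrn1, with as few as 13 and 14 fragments in a library.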
